A study of Mus musculus with 9 samples.

Results

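Selp, Vwf, Itgb3, Neo1, Clca3a1, Plscr2, Aldh1a1, Sult1a1, Clu and Nupr1 are 10 genes reported to mark the haematopoietic stem cells of old mice. They were taken by symbol from a table of 52550 genes, and all 10 were found. Reads were counted in 9 libraries, each made from 1000 sorted marrow cells, in 3 groups of 3. The first group came from old mice of 22 to 24 months with the Sphk2 knockout (KO), given in the labels as B6N.129S6-Sphk2tm1Rlp/J and as Sphk2 cKO. No driver of a conditional deletion is named. The second group came from old wild-type (WT) mice of the same ages, and the third from young WT mice of 2 months. Every library was sorted as Lin-, Sca1+, c-Kit+, CD48- and CD150+, and no mouse, litter or pool is given for any of them. The labels describe the 3 libraries of each kind as technical replicates, so p-values measure the spread between libraries and not that between mice.

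Haematopoietic stem cells renew themselves and give rise to all blood lineages. With age they become more numerous in mouse marrow and shift towards platelet and myeloid output. The 10 genes fall into platelet and vessel adhesion genes, further membrane or secreted proteins, metabolic enzymes, and stress proteins, and most are known as genes whose RNA is higher in old than in young stem cells. Sphk2 encodes sphingosine kinase 2, an enzyme that turns sphingosine into sphingosine 1-phosphate, and the title of the series links sphingosine metabolism with aged stem cells.

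Promoters from RefSeq (GRCm38.p6) are shown for 4 members whose reads were uneven among the old WT libraries, so that the sequence at their start sites can be read beside those values. Each runs from 250 bases before to 50 bases after the start, 5′ to 3′ on the gene's strand. Capitals mark the ETS core (GGAAG, or CTTCC on the other strand) and the GATA core (GATAA, or TTATC on the other strand), short motifs of factors active in stem cells and megakaryocytes.
Selp promoter, chr1:164115014-164115313, plus strand: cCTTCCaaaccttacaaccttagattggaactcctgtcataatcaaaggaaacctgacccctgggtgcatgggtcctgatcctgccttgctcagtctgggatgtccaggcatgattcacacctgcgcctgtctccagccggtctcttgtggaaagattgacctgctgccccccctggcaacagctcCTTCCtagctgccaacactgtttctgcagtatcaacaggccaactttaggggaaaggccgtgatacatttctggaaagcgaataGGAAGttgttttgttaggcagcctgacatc
Aldh1a1 upstream promoter, chr19:20492333-20492632, plus strand: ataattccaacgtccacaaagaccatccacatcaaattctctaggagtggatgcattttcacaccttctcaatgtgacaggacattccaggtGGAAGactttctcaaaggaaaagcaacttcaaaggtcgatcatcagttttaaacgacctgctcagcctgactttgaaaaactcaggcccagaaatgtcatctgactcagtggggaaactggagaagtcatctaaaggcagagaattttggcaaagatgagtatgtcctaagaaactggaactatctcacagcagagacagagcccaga
Aldh1a1 downstream promoter, chr19:20601718-20602017, plus strand: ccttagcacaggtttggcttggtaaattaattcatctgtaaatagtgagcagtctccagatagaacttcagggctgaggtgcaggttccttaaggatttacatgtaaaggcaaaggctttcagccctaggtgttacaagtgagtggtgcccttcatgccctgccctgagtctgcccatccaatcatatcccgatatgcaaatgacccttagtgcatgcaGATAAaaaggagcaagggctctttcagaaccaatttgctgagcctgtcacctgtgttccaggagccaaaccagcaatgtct
Nupr1 promoter, chr7:126625421-126625720, minus strand: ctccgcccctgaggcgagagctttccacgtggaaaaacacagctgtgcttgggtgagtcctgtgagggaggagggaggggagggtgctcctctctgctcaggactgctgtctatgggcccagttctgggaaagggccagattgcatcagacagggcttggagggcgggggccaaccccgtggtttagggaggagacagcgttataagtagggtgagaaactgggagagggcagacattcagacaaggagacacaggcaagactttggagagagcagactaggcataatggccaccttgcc
Sult1a1 promoter, chr7:126676369-126676668, minus strand: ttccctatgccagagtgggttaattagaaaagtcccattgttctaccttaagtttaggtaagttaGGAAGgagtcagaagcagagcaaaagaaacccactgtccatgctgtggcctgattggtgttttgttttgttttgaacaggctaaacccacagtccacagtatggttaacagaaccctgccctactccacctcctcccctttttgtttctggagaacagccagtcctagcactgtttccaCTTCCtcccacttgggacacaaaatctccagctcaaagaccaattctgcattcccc
The Selp window held 3 ETS cores and no GATA core, that of Sult1a1 held 2 ETS cores, and that of Nupr1 held neither. The Nupr1 window lies inside the annotated gene, which starts at 126630861 on the minus strand, and not at that start. RefSeq gives Aldh1a1 a pair of promoters, of which the upstream one, near the annotated gene start, held 1 ETS core and no GATA core, and the downstream one 1 GATA core and no ETS core. Of 32851 promoters of this length, 71.4% held the ETS core and 25.4% the GATA core, so these matches are common and describe the letters alone. The GC content was 51.7% for Selp, 43.3% and 47.0% for the upstream and downstream promoters of Aldh1a1, 58.3% for Nupr1 and 46.3% for Sult1a1, against a median of 52.7% over all promoters. Neo1, on the same scale, stood at 82.7% GC with 54 CpG sites, against a median of 7.

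The groups differed in how many of their reads came from genes. Counts in genes were 11284847 to 17544945 in old KO, 3145167 to 5115003 in old WT and 28088637 to 74021822 in young WT libraries. Counts outside annotated genes made up 45.0% to 61.9% of all counts in old KO, 80.8% to 87.7% in old WT and 6.51% to 12.5% in young WT libraries. A background was therefore read from the exons of 1122 olfactory receptor genes, a family that serves smell and is silent in blood. In CPM (counts scaled to each library's total counts in genes) per kb of exon it was 0.322 to 0.657 in old KO, 1.81 to 3.07 in old WT and 0.0170 to 0.0477 in young WT libraries. Above background here means a count of 20 or more that also reaches 5 times what the density predicts for the gene's exons. By that measure 2862 to 4142 protein-coding genes were detected in old KO, 630 to 1088 in old WT and 7352 to 8082 in young WT libraries. Of 15 stem cell and sort gate genes, 9 to 12 were above background in old KO, 1 or 2 in old WT and 11 to 14 in young WT libraries. Kit and Ly6a, which encode c-Kit and Sca1, were above background in none of the 3 old WT libraries, so the sorted identity of those libraries could not be read from these genes. Sphk2 had 12, 23 and 8 counts in old KO, 20, 1 and 35 in old WT and 1684, 88 and 576 in young WT libraries. The 3 young WT libraries were above background for it and the 6 old libraries were not, so the genotype label could not be checked by it.

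Fewer of the 10 genes stood above background in each old WT library than in any old KO or young WT library. Members above background numbered 8, 7 and 7 for old KO libraries 1, 2 and 3. The numbers were 2, 3 and 0 for old WT libraries 1, 2 and 3, and 7, 9 and 8 for young WT libraries. Clu alone was above background in every old KO and young WT library and in no old WT library. Selp, Aldh1a1 and Nupr1 were each above background in 1 old WT library, and Sult1a1 in 2. Those 5 genes can be set beside the 1440 genes detected in all young WT and all old KO libraries. Among the 1440, the number of old WT libraries with detection was 0 for 43.5%, 1 for 25.7%, 2 for 11.2% and 3 for 19.7%, so patchy detection in old WT was common and not limited to these members. Because the libraries are bulk samples, fewer cells of a type and less RNA per cell cannot be told apart in any of these values.

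**Figure D1:**
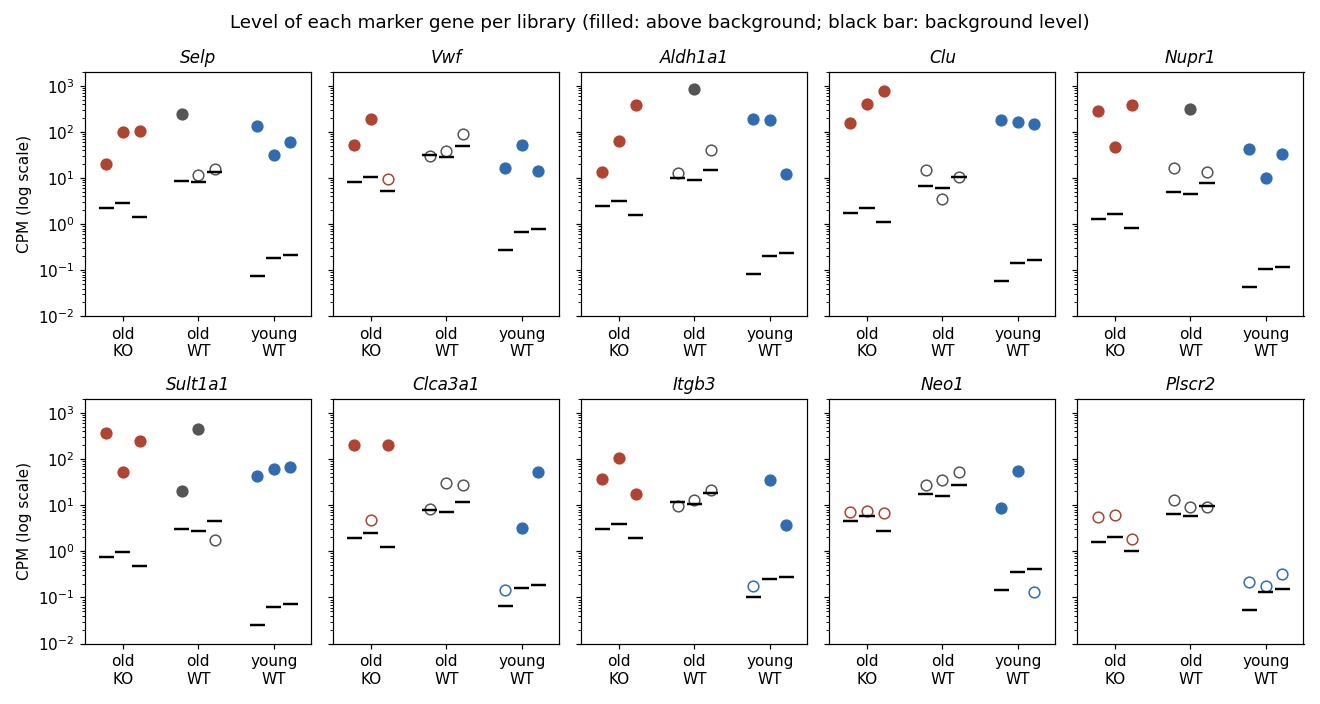
CPM of the 10 members on a log axis, 1 point per library with libraries 1 to 3 from left to right in each group. Filled points are above background and the black bars give each library's background for that gene. Clu is filled in all 3 old KO and all 3 young WT libraries and open in the 3 old WT libraries, while Selp, Aldh1a1 and Nupr1 have a single filled old WT point.

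Clu encodes clusterin, a secreted chaperone that binds misfolded proteins and lipids (ENSMUSG00000022037, GRCm38 chromosome 14, 65968483 to 65981547, plus strand, protein-coding). It had 2061, 4470 and 13693 counts in old KO libraries, which is 153, 396 and 780 CPM. Old WT libraries had 77, 11 and 37 counts, or 15.1, 3.50 and 10.7 CPM, and the lowest of these has a 95% exact binomial interval of 1.75 to 6.26 CPM. In young WT it had 13691, 4514 and 4557 counts, or 185, 161 and 147 CPM. The old WT libraries were the lowest 3 of the 9 and touched neither of the other groups, and the young WT libraries lay close together. The old KO libraries spread widely and overlapped the young WT ones. Group means (± SD, n = 3 each) were 443 ± 316 CPM in old KO, 9.76 ± 5.84 CPM in old WT and 164 ± 19.3 CPM in young WT. Clu in old WT lay at 2.21, 0.563 and 1.02 times its background, so the old WT value is a background level and the measured differences from it are limited by that level.

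Clu was the 1 member called in old WT against young WT, where it fell by 8.16 ± 1.43 on the log2 scale with TMM factors (SE, 3 libraries a group; edgeR's quasi-likelihood test with Benjamini-Hochberg adjustment, adjusted p = 0.00531). It was lower in all 3 old WT libraries. Among all 32582 genes tested, 18.4% were called lower and 18.6% higher in this comparison, so 1 call lower and 0 higher among 10 members is no more than the background share. Scaled by total counts, the log2 fold change of Clu was -4.07 ± 1.09 (same test, adjusted p = 0.00351). After background removal it was -5.35 ± 1.82 (adjusted p = 0.144), no longer called. Clu was again the 1 member called when old KO was set against old WT, and rose by 7.65 ± 1.40 on the log2 scale with TMM factors (same test, adjusted p = 0.0338), in 3 of 3 old KO libraries. Of all genes tested 0.457% were called higher and 0.0% lower in that comparison. By total counts the fold change was 5.50 ± 1.17 (adjusted p = 0.146) and after background removal 7.38 ± 2.00 (adjusted p = 0.129). With TMM factors the call was also lost without any 1 of the 3 young WT libraries (adjusted p of 0.0691 to 0.0983), without any 1 of the 3 old WT libraries (0.152 to 0.233) and without old KO library 3 (0.0549). The fold change of Clu in all 9 fits that left out 1 library was 6.45 to 8.33, and in each of the 3 fits without a young WT library 0 of the genes tested were called (edgeR quasi-likelihood test, 4398 to 4629 genes at an unadjusted p under 0.05), so losing the call there is not particular to Clu. Without old WT library 1, 2 or 3, 0, 0 and 1 of all tested genes were called, and 3 without old KO library 3. Those losses were thus not particular to Clu either. Old KO against young WT gave -0.51 ± 1.05 with TMM factors and 1.43 ± 0.982 by total counts for Clu, and neither was called (edgeR quasi-likelihood test, adjusted p = 0.701 and 0.215). Both comparisons with a Clu call use the same old WT libraries.

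The direction of most other members in old WT against young WT depended on how libraries were scaled, whereas in old KO against young WT 3 of 10 members changed sign by total counts and 4 of 9 after background removal. TMM factors were 0.726 to 1.37 in old KO, 3.18 to 5.37 in old WT and 0.173 to 0.333 in young WT. Computed after background removal, they were 0.761 to 0.806 in old KO, 1.02 to 1.25 in old WT and 0.913 to 1.42 in young WT. Over all tested genes the TMM factors without background removal moved the median log2 fold change by -3.93 in old WT against young WT relative to total counts. The shift was 1.88 in old KO against old WT and -2.04 in old KO against young WT. In old WT against young WT, 9 of 10 members were negative with TMM factors and 9 of 10 positive by total counts. Their median log2 fold change was -2.98 with TMM factors, beside 1.37 over all tested genes, and 0.89 by total counts, beside 5.30 over all. With background subtracted and 8575 genes kept, 9 members could be fitted and their median was 0.47, beside -2.09 over those genes. For old KO against old WT the 3 medians were 2.30, 0.57 and 1.24, beside -0.04, -1.91 and 1.01 over all genes fitted. Old KO against young WT gave -0.24, 1.79 and 2.25, beside 1.20, 3.24 and -0.35. Relative to the genes fitted, the members' median was thus lower in both comparisons with young WT by TMM factors and by total counts, and higher in both after background removal. The genes fitted differ, however. The 8575 were kept for detection in at least 2 libraries of a group, which 8315 genes met in young WT, 3044 in old KO and 619 in old WT. The other fits set no such limit, so lower and higher here depend on the genes kept and give no direction for the members.

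**Figure D2:**
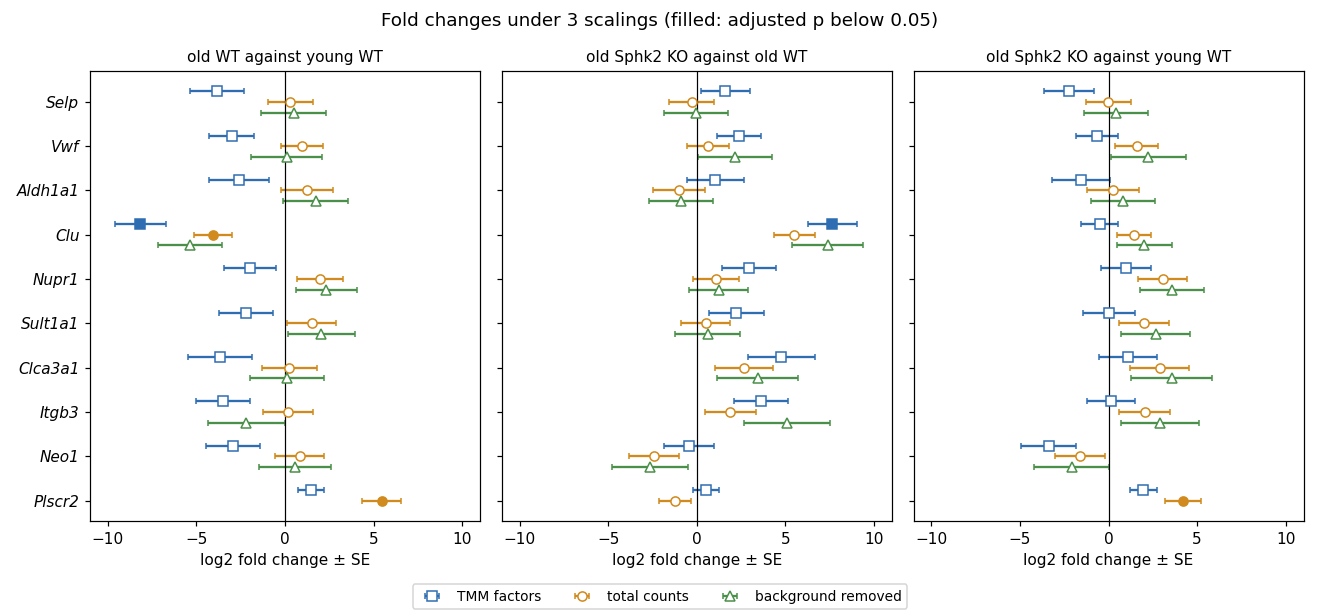
Log2 fold changes of the 10 members with their SE in the 3 comparisons, with TMM factors (squares), total counts (circles) and background removed (triangles). Filled symbols have an adjusted p below 0.05. Clu lies left of 0 in old WT against young WT and right of 0 in old Sphk2 KO against old WT under all 3 scalings, and in the first panel 8 members lie left of 0 with TMM factors and right of 0 by total counts.

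Among the adhesion genes, Selp encodes P-selectin, which platelets and endothelium expose on activation and which binds the leukocyte ligand PSGL-1 (ENSMUSG00000026580, chromosome 1, 164115264 to 164150026, plus strand). Selp had 271, 1097 and 1876 counts in old KO libraries, or 20.1, 97.2 and 107 CPM. Its counts in old WT were 1269, 37 and 54, or 248, 11.8 and 15.7 CPM, and in young WT 9930, 866 and 1892 counts, or 134, 30.8 and 61.0 CPM. Old WT library 1 held the highest Selp level of all 9 libraries by CPM on total counts and stood at 28.4 times background, while the other 2 old WT libraries stood at 1.47 and 1.15 times background. Divided by TMM factors, its level was 70.9 CPM, against 776 CPM in young WT library 1. By CPM all 3 groups overlapped, and after division by TMM factors old WT lay below young WT. Old WT against young WT gave a log2 fold change of -3.84 ± 1.52 with TMM factors (edgeR quasi-likelihood test, adjusted p = 0.0566) and 0.29 ± 1.26 by total counts (adjusted p = 0.851). Without old WT library 1, the TMM fold change of Selp was -6.90 and it was called.

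Vwf encodes von Willebrand factor, a long multimeric glycoprotein that tethers platelets to damaged vessel walls and that marks platelet-biased stem cells in mice (ENSMUSG00000001930, chromosome 6, 125546774 to 125686679, plus strand). It had 714, 2119 and 167 counts in old KO libraries, or 53.1, 188 and 9.52 CPM. In old WT it had 156, 121 and 315 counts, or 30.5, 38.5 and 91.4 CPM, and in young WT 1207, 1458 and 447 counts, or 16.3, 51.9 and 14.4 CPM. By CPM the old WT libraries were level with the others, yet they lay at 0.958, 1.32 and 1.85 times the background over its 16064 exonic bases. Old KO libraries 1 and 2 and all young WT libraries were above background, and the 3 groups overlapped by CPM. The log2 fold change in old WT against young WT was -3.02 ± 1.25 with TMM factors, 0.96 ± 1.20 by total counts and 0.09 ± 2.02 after background removal, and none was called (edgeR quasi-likelihood test, adjusted p = 0.0655, 0.493 and 0.982).

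Itgb3 encodes the integrin beta 3 subunit, which pairs with the Itga2b product on platelets to bind fibrinogen (ENSMUSG00000020689, chromosome 11, 104608000 to 104670476, plus strand). It had 504, 1168 and 306 counts in old KO libraries, or 37.5, 104 and 17.4 CPM. Old WT libraries had 49, 40 and 72 counts, or 9.58, 12.7 and 20.9 CPM, and in young WT 13, 968 and 118 counts, or 0.176, 34.5 and 3.80 CPM. All old KO libraries were above background, no old WT library was, and young WT library 1 was at 1.75 times background while library 2 was at 140 times. The groups overlapped in every comparison by CPM. Old KO against old WT gave 3.63 ± 1.52 on the log2 scale with TMM factors, which was not called (edgeR quasi-likelihood test, adjusted p = 0.334).

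Because these 3 genes are also expressed by megakaryocytes, platelets and, for Selp and Vwf, endothelium, markers of those cells stand beside them. Of 13 megakaryocyte and platelet genes 2 to 6 were above background in old KO, 0 or 1 in old WT and 7 or 8 in young WT libraries, and their summed level was 239 to 1042 CPM in old KO, 188 to 468 CPM in old WT and 600.2 to 1010.0 CPM in young WT. Ppbp, Gp6, Clec1b and Tubb1 were above background in no library. Of 12 endothelial genes 0 to 2 were above background in old KO, 0 in old WT and 3 in young WT libraries, with summed levels of 73.7 to 490 CPM, 195 to 255 CPM and 102 to 412 CPM in old KO, old WT and young WT. The endothelial genes Cdh5, Kdr and Plvap were above background in no library, and the young WT detection came from Robo4, Tie1 and Emcn. In old WT against young WT 7 megakaryocyte genes were called lower and 2 higher with TMM factors (2 lower and 4 higher by total counts). Over all genes 18.4% were called lower and 18.6% higher (3.48% and 68.4% by total counts). Pf4, platelet factor 4, gave -10.9 ± 2.16 on the log2 scale (edgeR quasi-likelihood test, adjusted p = 0.00647) and Rgs18, a regulator of G protein signalling, -9.92 ± 1.80 (adjusted p = 0.00562). Tubb1, the platelet tubulin, was called higher at background level. The call in old KO against old WT was 1, Rgs18 at 8.14 ± 1.68 (same test, adjusted p = 0.046; 0.146 by total counts), beside 0.457% of all genes called higher. Old KO against young WT gave 1 called lower, Gp5 at -6.21, and 1 higher, Tubb1, again at background (1 lower and 4 higher by total counts). Of all genes 5.84% were called lower and 6.92% higher in it (3.93% and 52.7% by total counts). Endothelial calls in old WT against young WT were 3 lower, Robo4 at -6.81, Tie1 at -6.37 and Emcn at -4.38, and 1 higher, Cdh5 at background (0 lower and 9 higher by total counts), and in old KO against young WT 1 lower, Robo4 at -6.67, and 1 higher, Cdh5 (1 lower and 8 higher by total counts). Their part in the adhesion genes' values was not tested.

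Neo1 encodes neogenin, a membrane receptor for netrins and repulsive guidance molecules (ENSMUSG00000032340, chromosome 9, 58874687 to 59036441, minus strand). It had 97, 83 and 120 counts in old KO libraries, or 7.21, 7.35 and 6.84 CPM. Its counts in old WT were 140, 110 and 179, or 27.4, 35.0 and 51.9 CPM, and in young WT 661, 1569 and 4 counts, or 8.93, 55.9 and 0.129 CPM. The old KO range lay wholly below the old WT range by CPM, yet all 6 old libraries stood between 1.28 and 2.44 times background, and above background it was seen only in young WT libraries 1 and 2. Young WT library 3 had fewer counts than its background. Neo1 gave -3.38 ± 1.54 on the log2 scale in old KO against young WT with TMM factors and was not called (edgeR quasi-likelihood test, adjusted p = 0.113), and was called lower without young WT library 3.

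Clca3a1 encodes a member of the calcium-activated chloride channel regulator family (ENSMUSG00000056025, chromosome 3, 144729677 to 144760977, minus strand). It had 2743, 54 and 3621 counts in old KO libraries, or 204, 4.79 and 206 CPM. In old WT it had 43, 95 and 96 counts, or 8.41, 30.2 and 27.8 CPM, and in young WT 11, 89 and 1641 counts, or 0.149, 3.17 and 52.9 CPM. High and background-level libraries stood side by side in old KO and in young WT, no old WT library was above background, and all groups overlapped. Old KO against old WT gave 4.77 ± 1.89 on the log2 scale with TMM factors and 2.64 ± 1.64 by total counts, and neither was called (edgeR quasi-likelihood test, adjusted p = 0.303 and 0.233). The nearest relative tested, Clca3a2, is 96.2% identical over the aligned transcript and shares 93 of 3375 windows of 150 bases with it, so a small part of the Clca3a1 reads could be ambiguous. Clca3a2 had 30 to 40 counts in old KO, 39 to 69 in old WT and 9 to 14 in young WT libraries and was above background in none, so the high Clca3a1 libraries were not matched by its paralog.

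Plscr2 encodes a phospholipid scramblase family member (ENSMUSG00000032372, chromosome 9, 92275602 to 92297752, plus strand). It had 76, 69 and 33 counts in old KO libraries, or 5.65, 6.11 and 1.88 CPM. Old WT libraries had 68, 29 and 32 counts, or 13.3, 9.22 and 9.28 CPM, and in young WT 16, 5 and 10 counts, or 0.216, 0.178 and 0.322 CPM. The 3 groups did not overlap, with old WT highest and young WT lowest by CPM. Plscr2 was nonetheless above background in none of the 9 libraries, at 0.949 to 4.003 times background, and its order followed that of the background density itself. By total counts it was called higher in old WT against young WT at 5.44 ± 1.09 on the log2 scale and in old KO against young WT at 4.22 ± 1.03 (edgeR quasi-likelihood test, adjusted p = 0.000783 and 0.00927). With TMM factors the values were 1.45 ± 0.753 and 1.96 ± 0.760, and neither was called (adjusted p = 0.12 and 0.0776). Plscr1, 82.0% identical over the aligned transcript, had 283, 39.3 and 157 CPM in old KO, 7.62, 11.4 and 7.25 CPM in old WT and 90.4, 100.4 and 90.3 CPM in young WT libraries. It was above background in all old KO and young WT libraries and in no old WT library, unlike Plscr2, which no library detected. Plscr1 was called lower in old WT against young WT with TMM factors and by total counts (-7.37 ± 1.42 and -3.42; edgeR quasi-likelihood test, adjusted p = 0.00602 and 0.0122).

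**Figure D3:**
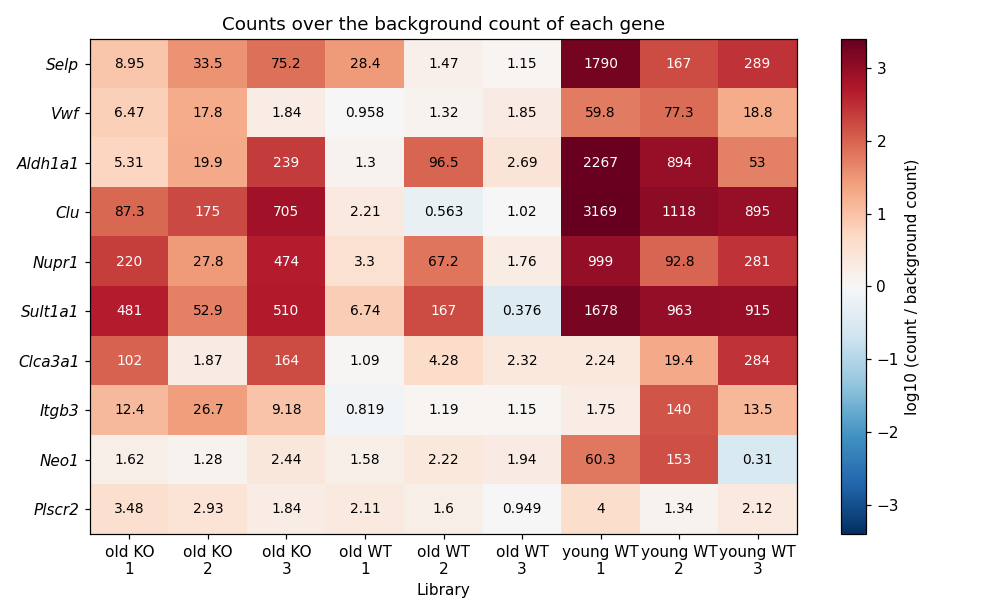
Count of each member over its background count, 1 column per library, with the ratio printed in each cell and coloured on a log10 scale. In the old WT columns 5 cells are above background, those of Selp in library 1 (28.4), Sult1a1 in library 1 (6.74) and Aldh1a1, Nupr1 and Sult1a1 in library 2 (96.5, 67.2 and 167), while the other old WT cells run from 0.376 to 4.28 and the Plscr2 row is pale throughout.

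Aldh1a1 encodes an aldehyde dehydrogenase that makes retinoic acid from retinaldehyde and clears reactive aldehydes (ENSMUSG00000053279, chromosome 19, 20492715 to 20643465, plus strand). It had 180, 728 and 6662 counts in old KO libraries, or 13.4, 64.5 and 380 CPM. Its counts in old WT were 65, 2711 and 141, or 12.7, 862 and 40.9 CPM, and in young WT 14067, 5185 and 388 counts, or 190, 185 and 12.5 CPM. By CPM on total counts a single library, old WT 2, held the highest level of all 9, while old WT 1 and 3 were not above background, and the 3 groups overlapped. Divided by TMM factors, old WT 2 was at 271 CPM, against 1099 CPM in young WT library 1, and the groups overlapped again. Old WT against young WT gave -2.59 ± 1.70 on the log2 scale with TMM factors and 1.24 ± 1.48 by total counts (edgeR quasi-likelihood test, adjusted p = 0.205 and 0.469). Without old WT library 2 the TMM value was -6.77 and called lower. Aldh1a7, the closest relative tested at 88.7% identity and with no shared window of 150 bases, was above background in 1 young WT library only.

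Sult1a1 encodes a sulfotransferase that adds sulfate to phenols, taking it from the donor that Papss1 and Papss2 make (ENSMUSG00000030711, chromosome 7, 126672865 to 126676432, minus strand). It had 4981, 591 and 4345 counts in old KO libraries, or 370, 52.4 and 248 CPM. In old WT it had 103, 1433 and 6 counts, or 20.1, 456 and 1.74 CPM, the last with a 95% exact binomial interval of 0.639 to 3.79 CPM. In young WT it had 3178, 1704 and 2043 counts, or 42.9, 60.7 and 65.8 CPM. The young WT libraries lay within a narrow range, whereas the old WT libraries spanned 262-fold by CPM and enclosed every other library. Divided by TMM factors, all old WT libraries lay below the young WT ones, at 0.324 to 143 CPM against 182 to 259 CPM. Old WT against young WT gave -2.21 ± 1.55 on the log2 scale with TMM factors and 1.49 ± 1.40 by total counts, and neither was called (edgeR quasi-likelihood test, adjusted p = 0.234 and 0.354). Without old WT library 2 the TMM value was -6.33 and called lower. Old KO against young WT gave 0.03 ± 1.48 with TMM factors and 1.98 ± 1.42 by total counts (same test, adjusted p = 0.99 and 0.235), although old KO libraries 1 and 3 were above all young WT libraries by CPM.

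Nupr1 encodes a small nuclear protein induced by cell stress, in part through the transcription factor ATF4 (ENSMUSG00000030717, chromosome 7, 126623249 to 126630861, minus strand). It had 3793, 518 and 6725 counts in old KO libraries, or 282, 45.9 and 383 CPM. Old WT libraries had 84, 961 and 47 counts, or 16.4, 306 and 13.6 CPM, and in young WT 3157, 274 and 1046 counts, or 42.6, 9.75 and 33.7 CPM. By CPM every old KO library was above every young WT library, though old KO 2 and young WT 1 were close, and the old WT libraries straddled both groups. Divided by TMM factors, old KO 2 was at 33.4 CPM, within the 29.3 to 247 CPM of young WT, so the groups overlapped on that scale. Old KO against young WT gave 0.98 ± 1.43 on the log2 scale with TMM factors, 3.05 ± 1.36 by total counts and 3.56 ± 1.80 after background removal, and none was called (edgeR quasi-likelihood test, adjusted p = 0.587, 0.0656 and 0.469). Against old WT the old KO value with TMM factors was 2.97 ± 1.53 (same test, adjusted p = 0.499).

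Nupr1 and Sult1a1 lie 42003 bases apart on the same strand of chromosome 7, with 1 protein-coding gene between them, Sgf29, which overlaps Sult1a1 by 61 bases on the other strand. Both members were highest in library 2 among the old WT libraries and lowest in library 2 among the old KO libraries, a likeness picked out after the values were seen. Sgf29, which encodes a chromatin reader of the SAGA complex, had 1.63, 6.38 and 28.4 CPM in old KO, 3.13, 3.82 and 9.57 CPM in old WT and 41.1, 33.3 and 36.1 CPM in young WT libraries. It was above background in no old WT library, so the high Nupr1 and Sult1a1 counts of old WT library 2 were not shared by the gene between them. In young WT, Nupr1 was lowest in library 2 and, by CPM, Sult1a1 in library 1.

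**Figure D4:**
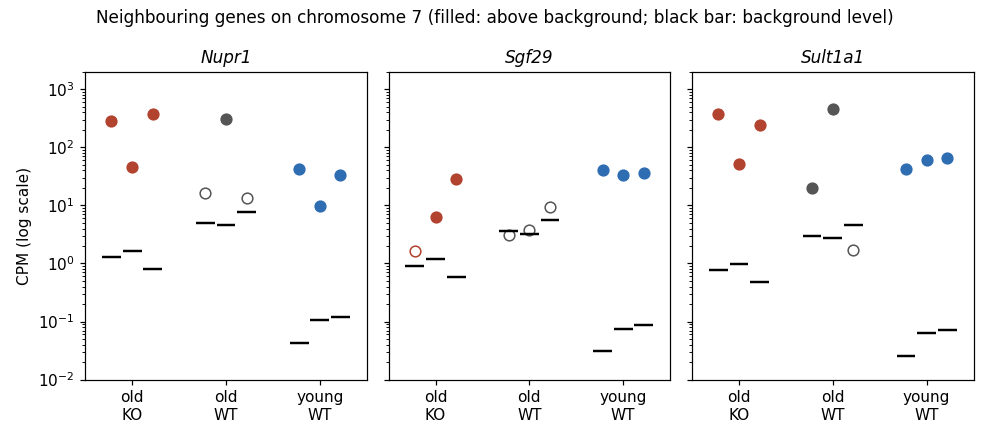
CPM of Nupr1, Sgf29 and Sult1a1 on a log axis, with libraries 1 to 3 from left to right in each group, filled where above background and with the background as a black bar. Old WT library 2 stands out for Nupr1 (306 CPM) and Sult1a1 (456 CPM) and not for Sgf29 (3.82 CPM).

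Other scalings and DESeq2 gave other counts of calls among the 10 members. By total counts 1 member was called higher, Plscr2, and 1 lower, Clu, in old WT against young WT, beside 68.4% of all tested genes called higher and 3.48% lower. For old KO against old WT the total counts called 0 members (edgeR quasi-likelihood test; 1 member had an unadjusted p under 0.05, and DESeq2 called 3), beside 0.00614% of genes higher and 0.0% lower. Against young WT, old KO had 1 member called higher by total counts, Plscr2, beside 52.7% of genes higher and 3.93% lower. After background removal 0 members were called in all 3 comparisons (edgeR quasi-likelihood test; an unadjusted p under 0.05 for 1, 1 and 0 members). Of the 8575 genes kept there, 0.0816% were called higher and 0.0583% lower in old WT against young WT, 0.163% higher and 0.0117% lower in old KO against old WT, and 0.0466% higher and 0.0% lower in old KO against young WT. DESeq2 called 6 members lower and 0 higher in old WT against young WT (19.8% lower and 31.9% higher over all genes), 3 higher and 0 lower in old KO against old WT (6.23% and 0.463%), and 1 lower and 0 higher in old KO against young WT (13.7% and 14.3%).

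Across comparisons few members had CPM ranges that did not overlap. Old WT and young WT were apart for Plscr2, higher, and Clu, lower, where 65.0% of all tested genes were apart in the higher and 5.87% in the lower direction. Old KO and old WT were apart for Clu, higher, and for Neo1 and Plscr2, lower, beside 1.91% and 48.8% of all tested genes. Old KO and young WT were apart for Nupr1 and Plscr2, both higher, beside 53.5% higher and 4.06% lower over all. Divided by TMM factors, old WT lay wholly below young WT for Selp, Vwf, Clu and Sult1a1 and above it for Plscr2, beside 16.3% of all tested genes apart in the lower and 35.3% in the higher direction. On that scale old KO lay above old WT for Clu and Itgb3, where 8.71% of all genes were apart in the higher and 7.85% in the lower direction, and above young WT for Plscr2, where the shares were 30.8% and 11.4%. Among the 8575 genes above background in at least 2 libraries of a group, the shares apart were 9.18% higher and 22.4% lower in old WT against young WT, 7.18% and 27.1% in old KO against old WT, and 5.11% and 15.4% in old KO against young WT. Plscr2 and, in the old groups, Neo1 were at background, so by CPM Clu and Nupr1 are the members whose separation rests on detected reads in at least 1 group. With TMM factors 0 of 10 members were called in old KO against young WT (edgeR quasi-likelihood test), beside 6.92% of all genes called higher and 5.84% lower. In it, 2 members had an unadjusted p under 0.05, and DESeq2 called 1, Neo1, lower. Old KO and young WT mice differ in age and genotype at once, and the effects of these cannot be told apart.

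Per kb of exon, the highest old KO means were those of Sult1a1 (148 ± 106 CPM per kb), Clu (129 ± 92.0) and Nupr1 (94.3 ± 68.9), followed by Clca3a1, Aldh1a1, Selp, Itgb3 and Vwf, with Plscr2 (1.43 ± 0.730) and Neo1 (0.819 ± 0.0305) at background (SD, n = 3 each). In young WT the order of the mean levels per kb began with Clu (47.8 ± 5.61 CPM per kb), Sult1a1 (37.5 ± 7.97) and Aldh1a1 (26.1 ± 20.5). Selp, Nupr1, Clca3a1, Neo1, Itgb3, Vwf and Plscr2 followed in young WT, the last at 0.0751 ± 0.0235 CPM per kb. The ranges of neighbours in these orders overlapped in every case except Vwf and Plscr2 in young WT. No order is given for old WT, where the means of Aldh1a1, Sult1a1, Nupr1 and Selp each rest on 1 or 2 libraries.

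Spread within groups was large for these genes and for others. The highest library over the lowest, by CPM, had a median of 6.50 over the members in old KO, 3.95 in old WT and 4.36 in young WT. Over genes above background in at least 2 libraries of the group it was 9.30 in old KO (3044 genes), 5.49 in old WT (619 genes) and 8.05 in young WT (8315 genes). The member medians were not limited by detection. Members that met the same limit numbered 8 in old KO, 1 in old WT and 9 in young WT. The member median in old WT thus rests mostly on background-level counts and cannot be compared with that of the detected genes. The members ranged from 1.08 (Neo1) to 43.1 (Clca3a1) in old KO, from 1.44 (Plscr2) to 262 (Sult1a1) in old WT and from 1.26 (Clu) to 433 (Neo1) in young WT. Selp, Aldh1a1, Sult1a1, Clca3a1 and Neo1 each overlap a gene on the other strand, and reads of the 2 strands could not be told apart because the strand setting of the counting is not given in the sources used here. The smallest ratios in both old groups belonged to genes at background, while the small young WT ratio of Clu came from 4514 to 13691 counts per library.

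A wider list of 30 other genes reported for old stem cells was read in the same way. Of these, 15 to 18 were above background in old KO, 1 to 4 in old WT and 16 to 18 in young WT libraries. With TMM factors 12 were called lower and 2 higher in old WT against young WT, and 4 lower and 9 higher by total counts. Over all tested genes the shares were 18.4% lower and 18.6% higher with TMM factors, and 3.48% lower and 68.4% higher by total counts. The largest TMM changes were in Slc14a1, a urea transporter (-8.78 ± 1.41; edgeR quasi-likelihood test, adjusted p = 0.0048), Cd63, a tetraspanin (-7.76 ± 1.48; adjusted p = 0.00584), and Gpr183, an oxysterol receptor (7.93 ± 1.42; adjusted p = 0.00574). Gpr183 was above background in no library. None of the 30 was called in old KO against old WT in either direction with TMM factors or by total counts (edgeR quasi-likelihood test). Over all genes 0.457% were called higher with TMM factors and 0.00614% by total counts, and 0.0% lower by either. The absence of calls is thus not particular to this list. Tsc22d1 and Cd9 had the highest means over the 9 libraries. Tsc22d1, a leucine zipper protein, had 707 to 2019 CPM in old KO, 133 to 734 CPM in old WT and 1109 to 2161 CPM in young WT. Cd9, a tetraspanin, had 133 to 279 CPM in old KO, 21.9 to 35.0 CPM in old WT and 155 to 309 CPM in young WT. Old KO against young WT gave 1 called lower and 3 higher (1 and 11 by total counts), with Ramp2 at 8.91 ± 2.11, Slc14a1 at -8.16 ± 1.37 and Gpr183 at 7.57 ± 1.42 (same test, adjusted p = 0.0314, 0.0298 and 0.0298). Over all genes 5.84% were called lower and 6.92% higher in it (3.93% and 52.7% by total counts). Ramp2 was above background in 1 old KO library alone, with 865 counts.

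Genes that act with the members, 25 in all, were detected as 6 to 10 in old KO, 1 or 2 in old WT and 10 to 14 in young WT libraries. In old WT against young WT 10 were called lower and 3 higher with TMM factors (3 lower and 9 higher by total counts). Over all genes 18.4% were called lower and 18.6% higher (3.48% and 68.4% by total counts). Ddit3, the stress transcription factor CHOP, fell by 10.3 ± 1.41 on the log2 scale, Selplg, the P-selectin ligand, by 7.87 ± 1.33, and Atf4, which drives Nupr1 under stress, by 7.21 ± 1.32 (edgeR quasi-likelihood test, adjusted p = 0.00387, 0.00531 and 0.00573). All 3 were also called lower by total counts. The 3 called higher, Rarb, Ntn1 and Rgma, were above background in no library. Ddit3 rose, in old KO against old WT, by 7.33 ± 1.25 with TMM factors (same test, adjusted p = 0.0338; 0.146 by total counts), with means (± SD, n = 3 each) of 114 ± 24.4 CPM in old KO and 2.87 ± 1.79 CPM in old WT. In old KO against young WT, Papss1, which makes the sulfate donor used by Sult1a1, was called lower at -6.18 ± 1.37 (same test, adjusted p = 0.0308), and Papss2 higher at background level. The shares over all genes in the comparisons with old KO are those given for the wider list.

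Relatives of the members, 23 of 24 listed genes with an identifier, gave 3 called lower (Plscr1, Plscr3 at -6.94 and Itgb1 at -6.52) and 7 called higher in old WT against young WT with TMM factors, and 1 lower and 16 higher by total counts. None of the relatives was called in old KO against old WT (edgeR quasi-likelihood test), beside 0.457% of all genes called higher and 0.0% lower. In old KO against young WT 3 were called higher and 0 lower (16 higher by total counts). The other shares over all genes given for the wider list stand beside these counts and those of the stem cell genes. All 7 relatives called higher in old WT against young WT were above background in no library of these 2 groups. The 3 called higher in both comparisons with young WT, Sult1d1, Sult1b1 and Clca4a, were above background in no library at all. Of the 15 stem cell and sort gate genes, 8 were called lower in old WT against young WT with TMM factors (4 by total counts, and 1 higher), among them Kit at -7.69 ± 1.21 and Tal1 at -6.96 ± 1.31 (edgeR quasi-likelihood test, adjusted p = 0.0046 and 0.0058). Against young WT, old KO libraries gave Cd34 at -5.82 ± 1.75 and Kit at -3.53 ± 0.994 (same test, adjusted p = 0.0446 and 0.0395), and neither was called by total counts. Detection was lowest in old WT libraries for the members and for the stem cell genes alike, and whether the members differ beyond that was not tested.

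Markers of other blood cells were also read. Of 8 erythroid genes, 0 or 1 were above background in old KO, 0 in old WT and 4 to 6 in young WT libraries, with summed levels of 4.90 to 61.5 CPM in old KO, 14.3 to 21.2 CPM in old WT and 65.8 to 447 CPM in young WT. Of 9 myeloid genes, 1 to 6 were above background in old KO, 1 to 3 in old WT and 4 or 5 in young WT libraries, with summed levels of 23.0 to 500.3, 54.7 to 665 and 39.2 to 172 CPM in old KO, old WT and young WT. Of 10 lymphoid genes, 0 or 1 were above background in old KO and in old WT, and 1 to 5 in young WT libraries, with summed levels of 15.0 to 169, 92.1 to 152 and 8.26 to 83.3 CPM. Csf1r and Cd3e were above background in no library. Calls in old WT against young WT with TMM factors were 5 lower and 1 higher in the erythroid list, led by Hba-a1, Klf1 and Hbb-bs at -10.5, -10.5 and -8.82. They were 3 lower in the myeloid list, Mpo, S100a9 and Ngp at -6.80, -6.46 and -6.07, and 3 higher in the lymphoid list, Cd3e, Cd8a and Cd3g, all 3 at background. By total counts the same lists had 4 lower and 1 higher, 0 lower and 4 higher, and 0 lower and 8 higher. Over all genes 18.4% were called lower and 18.6% higher with TMM factors in this comparison, and 3.48% and 68.4% by total counts. No gene of these 3 lists was called in old KO against old WT (edgeR quasi-likelihood test), beside 0.457% of all genes called higher and 0.0% lower. In old KO against young WT 4 erythroid genes were called lower and 2 higher, with 1 myeloid gene, Mpo, lower at -6.63 and no lymphoid gene called. By total counts old KO against young WT had 4 lower and 2 higher in the erythroid list, 1 lower and 3 higher in the myeloid list, and 0 lower and 7 higher in the lymphoid list. The shares over all genes were 5.84% lower and 6.92% higher with TMM factors, and 3.93% and 52.7% by total counts. The part of these 3 lists in the members' values was not tested.

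**Figure D5:**
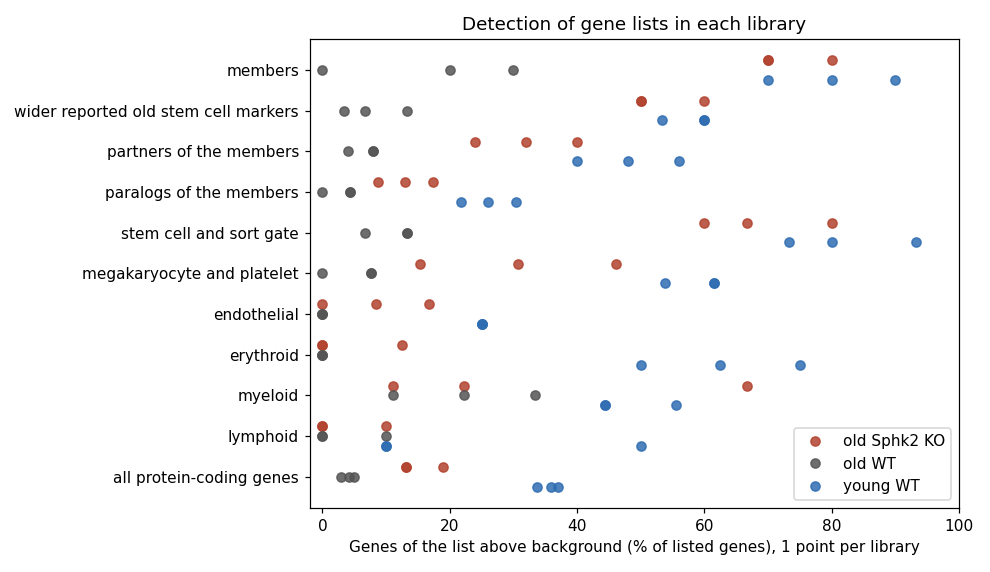
Share of each gene list above background, in percent of the listed genes, with 1 point per library (red, old Sphk2 KO; grey, old WT; blue, young WT). Of the 10 members, 7 or 8 were above background in old KO, 0 to 3 in old WT and 7 to 9 in young WT libraries, and old WT libraries are also the lowest for the wider list, the stem cell genes and all protein-coding genes.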

How the data were processed

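RNA of 1000 sorted cells per library was reverse transcribed, poly(A)-tailed, amplified for 13 PCR cycles and read as pairs of 150 bp, per the labels' protocols. The authors deposited raw read counts per gene in 1 table. Per the submitters' processing notes the tools included HTSeq 0.10.0, the aligner STAR 2.6.1d on mm10, the trimmer Trim Galore 0.6.2, and edgeR 3.24.3, with no order given. The gene annotation is not given in the sources used here.

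The 5 lines that name no gene stayed out of library sizes and tests. They hold 6.51% to 87.7% of a library's counts as reads outside genes, and 0.619% to 5.48% as ambiguous reads. Symbols, coordinates and exon lengths come from GENCODE M21 (52403 of 52550 genes). CPM are counts scaled to a library's total counts in genes. Levels divided by TMM factors are these CPM over each library's factor, a scale added after the values were seen. The test was edgeR 4.0.16's quasi-likelihood F test (R 4.3.3) on all 9 libraries, with TMM factors, group means as the model, genes filtered by filterByExpr, and Benjamini-Hochberg adjustment at 0.05 over 32582 genes. A positive fold change is higher in the group named first, and called means past that threshold. Background density leaves out the densest 1% of olfactory receptor genes. Background removal subtracts it from each count and keeps genes above background in at least 2 libraries of a group. Other alternatives were total counts, DESeq2 1.42.0, no filter, at least 10 counts in every library of a group, leaving out each library in turn, a block for the replicate number, and only the libraries of the compared groups. The fit was also run on simulated counts with equal library sizes, no background, upward changes only and dispersions below the 0.888 of these data. That run does not bear on background or scaling here.

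Libraries of a group differed by more than sampling noise (chi-square per gene of 65.3 to 1091), so none was counted as deposited more than once. Exact binomial intervals of a count within its library total cover counting error only, since PCR copies are not independent molecules. The 10 members, the other lists and the settings were chosen with earlier results of these data known. Outside the members, the text names Sphk2 and, of each list, the called genes up to 3 with the largest fold change, or the 2 with the highest mean CPM; further genes named for being above background in no library were chosen after their values were seen. Results of some listed genes are not reported here. Of the 10 members 6 have a RefSeq promoter entry (Selp, Aldh1a1, Nupr1, Sult1a1, Clca3a1 and Neo1). Relatives were compared by the longest protein-coding transcripts of GENCODE M21.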

Additional observations from a re-analysis of the deposited data

Results flagged for a closer look

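Counts outside annotated genes, which no comparison above uses, made up a mean of 54.5% in old Sphk2 KO libraries (45.0% to 61.9%) and 83.6% in old WT libraries (80.8% to 87.7%), above the 6.51% to 12.5% of young WT libraries. The values stood out because they lie in lines of the count table that name no gene and are higher than in the young WT libraries. The background density had the same order of groups. The number of members above background was lower in each old WT library than in any other library, while old KO and young WT libraries overlapped in it.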

How the results depend on the processing

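In old WT against young WT 1 member was called, Clu. The count was 2 by total counts (Clu and Plscr2), 6 with DESeq2 (Clu, Selp, Vwf, Itgb3, Neo1 and Clca3a1, all lower), 2 with no filter (Clu and Selp), 2 with the stricter filter (Clu and Plscr2), 0 after background removal, and 1 to 3 when 1 library was left out. Over all genes tested, 37.0% were called in this comparison, against 21.9% with no filter, 63.3% with the stricter filter and 10.6% to 30.4% with 1 library left out. The added calls were Itgb3 without young WT library 1, Neo1 without young WT library 3, Selp without old WT library 1, and Aldh1a1 and Sult1a1 without old WT library 2. For old Sphk2 KO against old WT 1 was called, Clu, against 0 by total counts, 3 with DESeq2 (Clu, Itgb3 and Clca3a1, all higher), 0 with the compared groups alone, 0 after background removal and 0 to 1 with 1 library left out. Over all genes 0.457% were called there, against 0.00614% by total counts, 6.69% with DESeq2 and 0% with the compared groups alone. The share was 0.175% after background removal and 0% to 0.49% with 1 library left out. For old Sphk2 KO against young WT 0 were called, against 1 by total counts and 1 with the stricter filter (both Plscr2), 1 with DESeq2 (Neo1) and 0 to 1 with 1 library left out (Neo1 without young WT library 3). Over all genes 12.8% were called in it, against 56.6% by total counts and 30.6% with the stricter filter. The share was 28.1% with DESeq2 and 0% to 11.9% with 1 library left out. Clu in old WT against young WT was called in 9 of 9 such fits, with log2 fold changes of -8.91 to -7.82. The causes were not tested.

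Log2 fold changes that changed sign in old WT against young WT were, by total counts, Selp 0.29, Vwf 0.96, Aldh1a1 1.24, Nupr1 1.96, Sult1a1 1.49, Clca3a1 0.24, Itgb3 0.17 and Neo1 0.82, and after background removal Selp 0.47, Vwf 0.0897, Aldh1a1 1.72, Nupr1 2.32, Sult1a1 2.05, Clca3a1 0.13 and Neo1 0.56. In old Sphk2 KO against old WT they were, by total counts, Selp -0.30, Aldh1a1 -1.0003 and Plscr2 -1.22, and after background removal Selp -0.0524 and Aldh1a1 -0.92. In old Sphk2 KO against young WT they were, by total counts, Vwf 1.599, Aldh1a1 0.24 and Clu 1.43, after background removal Selp 0.42, Vwf 2.25, Aldh1a1 0.80 and Clu 2.02, with DESeq2 Sult1a1 -0.24 and Itgb3 -0.0084, and with no filter Sult1a1 -0.0793. With 1 library left out, signs changed for Clca3a1 in old WT against young WT (-4.32 to 0.0255), Aldh1a1 in old Sphk2 KO against old WT (-1.65 to 5.13), and Nupr1 (-0.0414 to 1.70), Sult1a1 (-0.41 to 0.42) and Itgb3 (-0.65 to 2.44) in old Sphk2 KO against young WT.

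Deviations of same-numbered libraries from different groups had correlations of -0.0217 to 0.0419, and those of differently numbered ones -0.0328 to 0.0470. Few genes stood out from background in old WT, where low correlations could arise with or without pairing. The pairs with old WT therefore cannot decide whether the numbers pair the libraries. Between young WT and old Sphk2 KO, same-numbered libraries had correlations of -0.00946 to 0.0245 and differently numbered ones -0.0250 to 0.0272. Same-numbered libraries were thus no more alike there. With the replicate block the counts of members called were 1 in old WT against young WT, 0 in old Sphk2 KO against old WT and 0 in old Sphk2 KO against young WT, beside 21.7%, 0.00614% and 0% of all genes, so the lost Clu call is not particular to the members. Background in old WT libraries, of 1.81 to 3.07 CPM per kb, limits what can be read of any member there.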

Other observations

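Each old WT library held high counts of genes of which the other 2 had few, as seen in genes picked from the lists after their values were seen. Library 1 had 1046 counts of Itga2b, the platelet integrin subunit that pairs with Itgb3, against 61 and 82 in libraries 2 and 3, and 2281 of Procr, the endothelial protein C receptor of stem cells, against 12 and 33. It is also the library with 1269 counts of Selp. Library 2, which held Aldh1a1, Nupr1 and Sult1a1, had 1861 counts of Gata2, 2134 of Cd34 and 1172 of Gp9, against 97, 55 and 9 in library 1 and 120, 89 and 15 in library 3. Library 3, in which no member was above background, had 4732 counts of Hlf and 1054 of Slamf1, which encodes CD150, against 144 and 44 in library 1 and 46 and 46 in library 2. Atf4 had 260, 1401 and 101 counts in old WT libraries 1, 2 and 3, highest where Nupr1 was highest among the old WT libraries. Mean CPM of Atf4 was 175 in old WT and 1847 in young WT, and that of Nupr1 112 and 28.7. The old WT mean of Nupr1 rests on library 2, at 306 CPM. Libraries 1 and 3, at 16.4 and 13.6 CPM, were not above background, so the Nupr1 means give no direction. With TMM factors both log2 fold changes in old WT against young WT were negative (-7.21 and -1.99, the latter not called). A link between the genes was not tested.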
